A study of Homo sapiens with 9 samples.

Results

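Transcript counts of 41 genes of ceramide, sphingomyelin and glycosphingolipid metabolism were followed through 9 RNA sequencing libraries of H295R cells, an established human adrenocortical carcinoma line that makes steroid hormones. The genes were chosen by symbol as a pathway list, each symbol matched 1 Ensembl gene, and they are described in the order of the pathway, from serine palmitoyltransferase to breakdown in the lysosome. The count tables list 60671 genes, of which 14150 had enough counts to be tested, and 39 of the 41 members were among these. SPTSSB and ACER2 had too few counts in every group. The groups were untreated H295R cells of genotype WT, SGPL1 KO and SGPL1 OE (knockout and overexpression in the series' design text), with 3 libraries each that the design text calls biological replicates. The edit, the overexpression construct and the number of clones behind each line are not stated in the labels, nor are separate cultures for the replicates, so p-values measure only the spread between these libraries, which may be partly technical. SGPL1 encodes sphingosine-1-phosphate lyase, the enzyme through which carbon leaves sphingolipid metabolism for good. The design sets the transcripts of the rest of the pathway in the 2 engineered lines beside those of WT.

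Sphingolipids are built in the endoplasmic reticulum from serine and a fatty acyl-CoA, by way of dihydroceramide and ceramide. Ceramide is then carried to the Golgi and turned into sphingomyelin, or is given a sugar and becomes the root of the glycosphingolipids and gangliosides. Sphingomyelinases, lysosomal glycosidases and ceramidases take these lipids apart again to sphingosine, which is either recycled to ceramide or phosphorylated and cleaved by the lyase. In steroid-making cells, ceramide, sphingosine and sphingosine-1-phosphate are known as regulators of steroid hormone synthesis.

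SGPL1 checks the labels. It stood at 102, 83.4 and 98.1 CPM (read counts relative to library size, after TMM scaling) in WT, at 47.2, 43.9 and 53.8 CPM in KO, and at 98.1, 81.3 and 101 CPM in the OE-labelled libraries. It was lower in KO (log2 fold change -0.97, edgeR adjusted p = 0.000105) and was not higher in the OE-labelled libraries than in WT (-0.01, adjusted p = 0.966), so that group is named by its label. Library totals ran from 8006873 to 10895080 counts. Ribosomal protein transcripts made up 5.17% to 6.81% of all counts in WT, 4.11% to 4.9% in KO and 7.31% to 9.37% in the OE-labelled libraries, and each library's deviation from the mean log2 CPM of the groups had a slope on log2 transcript length of 0.05 to 0.157 in KO and -0.262 to -0.087 in the OE-labelled libraries. WT replicate 2, with a slope of -0.072 against 0.071 and 0.132 in the other WT libraries, leaned toward short transcripts. All 12 adrenocortical markers had counts in every group, with summed levels of 5280 to 6010 CPM in WT, 8810 to 10800 CPM in KO and 7020 to 8160 CPM in the OE-labelled libraries. DLK1 was the largest part of these sums, with means of 2595, 5796 and 3037 CPM. In KO against WT 7 of the 12 were called higher and none lower (58.3% beside 18.8% of all genes). NR5A1, CYP11A1, CYP17A1, CYP21A2 and MC2R passed no test there. In the OE-labelled libraries against WT 5 of the 12 were called higher and none lower (41.7% beside 20.7% of all genes). Of the fibroblast, epithelial, leukocyte and endothelial lists, LUM, KRT5, KRT14, PTPRC, CD3E and CD68 were at 0 in all 9 libraries. No summed level passed 31.9 CPM, but other genes of these lists had counts. EPCAM had means of 25.3 CPM in WT, 12.0 in KO and 29.1 in the OE-labelled libraries. In the same order, COL1A1 had 10.6, 12.1 and 9.7 CPM, COL3A1 11.5, 3.75 and 3.93 CPM, and PDGFRB 0.077, 2.08 and 0.063 CPM. These genes are named after their values were seen. The 5 epithelial markers summed to 23.9 to 28.4 CPM in WT, 10.5 to 12.9 CPM in KO and 27.6 to 31.9 CPM in the OE-labelled libraries, and the 6 fibroblast markers to 16.5 to 27.2, 17.1 to 19.2 and 11.9 to 16.8 CPM. The 8 proliferation markers summed to 2230 to 2560 CPM in WT, 1940 to 2310 CPM in KO and 1750 to 1780 CPM in the OE-labelled libraries. Single markers moved within that sum. Named after their values were seen, MKI67 (-2.63), CENPF (-2.43) and TOP2A (-0.58) were called lower in the OE-labelled libraries than in WT, and CCNB1 (-0.76) in KO. These measures move with the groups, and their part in the results below was not tested. In bulk RNA, fewer cells that express a gene and less of its RNA per cell cannot be told apart.

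The pathway genes spanned more than 4 orders of magnitude in WT. Dividing CPM by the length of the principal transcript in kilobases, so that genes can be ranked, put PSAP first at 884 ± 104 CPM per kb (SD, n = 3). PSAP encodes prosaposin, the precursor of the saposins that help lysosomal enzymes reach their lipids. SPTLC1 followed at 227 ± 18.7 CPM per kb and SPTSSA at 113 ± 12.4 CPM per kb, both parts of serine palmitoyltransferase, and the ranges of these 3 genes over the libraries did not overlap. Then came 6 genes of similar level: CERS2 (57.7 ± 3.76), GLA (52.4 ± 4.67), DEGS1 (52.2 ± 0.241), UGCG (50.2 ± 2.15), NEU1 (47.9 ± 9.9) and ORMDL3 (44.0 ± 3.44 CPM per kb). Neighbours in this order overlapped over the WT libraries, except that DEGS1 (52.0 to 52.4) lay above UGCG (47.7 to 51.4). The median of all genes tested was 7.18 CPM per kb in WT, 7.29 in KO and 6.83 in the OE-labelled libraries. At the low end stood SMPD3 (0.221 ± 0.0848), SPTSSB (0.1 ± 0.0419) and UGT8 (0.0387 ± 0.0336 CPM per kb). PSAP, SPTLC1 and SPTSSA kept ranks 1 to 3 in all 3 groups. Ranks depend on the length used: with the union of all annotated exons, GLA moved from rank 5 to 15 and ASAH1 from 17 to 30.

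In KO against WT, 9 of the 39 members tested were called at an adjusted p under 0.05 (edgeR quasi-likelihood test, Benjamini-Hochberg over all genes tested), 5 higher and 4 lower. That is 23.1%, beside 18.8% of all genes tested in the same comparison, of which 9.16% were higher and 9.60% lower. The higher ones were SPTLC2, CERS2, CERS6, CERT1 and UGT8, and the lower ones SPTLC3, ORMDL3, GALC and GM2A. The median log2 fold change of the members was 0.07, beside -0.01 for all genes tested. For 16 of the 39 members the KO and WT libraries did not overlap, beside 35.2% of all genes.

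With the OE-labelled libraries against WT, 7 members were called, which is 17.9% beside 20.7% of all genes tested (9.65% higher and 11.0% lower). ORMDL1, ORMDL2, CERS5, SMPD2 and GLA were higher, and SPTLC3 and PSAP lower. The median was 0.04 (all genes -0.01), and 14 members (35.9%) did not overlap between the groups, beside 36.4% of all genes. In the OE-labelled libraries against KO, 14 members were called, which is 35.9% beside 39.7% of all genes tested (19.0% higher and 20.6% lower). SPTSSA, ORMDL1, ORMDL3, CERS4, CERS5, SMPD2, GLA and GM2A were higher, while SPTLC2, CERS6, CERT1, SGMS1, SGMS2 and UGT8 were lower, and 18 members (46.2%) did not overlap, beside 51.7% of all genes. The median of the members was -0.01, near that of all genes. As the 3 comparisons share their groups in pairs, their calls are not independent of each other. In every comparison the share of members called was near the share of all genes, and calls in both directions occurred within single steps.

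**Figure D1:**
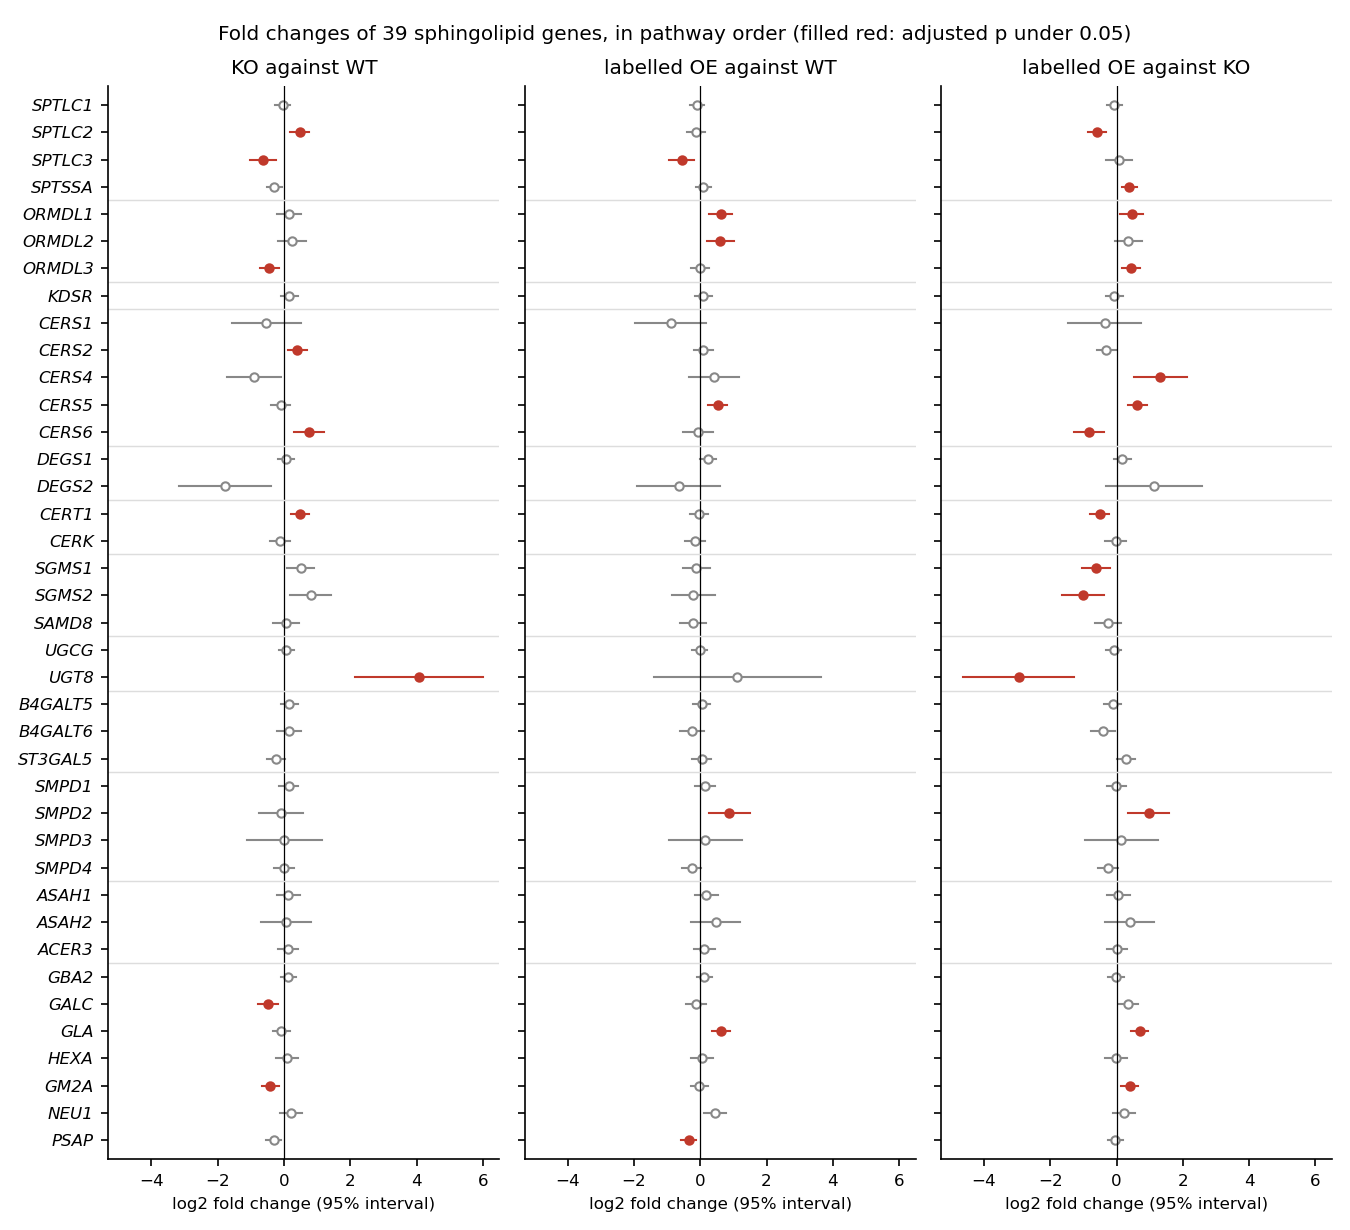
Log2 fold changes of the 39 members tested, with 95% intervals, in pathway order from top to bottom and separated by step; filled red points passed an adjusted p of 0.05 (9, 7 and 14 members in the 3 panels) and open grey points did not. UGT8, at 4.07 in KO against WT, lies far to the right of the other members, most of which lie between -1 and 1.

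Of the 41 members, 19 were called in at least 1 comparison and 20 were tested and called in none, so 48.7% of those tested were called at least once, beside 48.1% of all genes. SPTLC2, CERS6, CERT1 and UGT8 were higher in KO than in WT and lower in the OE-labelled libraries than in KO. ORMDL3 and GM2A had the mirror image, lower in KO than in WT and higher in the OE-labelled libraries than in KO. ORMDL1, CERS5, SMPD2 and GLA were higher in the OE-labelled libraries than in both other groups, and SPTLC3 was lower than WT in both engineered lines. These patterns follow from the calls listed above and are no separate test.

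Upstream sequence is shown for 3 members for which RefSeq (GRCh38.p14) gives a start. UGT8 is the member with the largest fold change, GLA the one whose call in the OE-labelled libraries against WT held under every alternative that was run, and CERS5 a ceramide synthase whose call against KO did so. Each stretch begins 250 bases before a RefSeq start and ends where the gene begins in the annotation of the count files, so that it lies outside the gene in both, and it is written 5′ to 3′ on the gene's strand. Capitals mark the GC box GGGCGG and the CCAAT box CCAAT on either strand, which do not overlap here.
UGT8 (chr4:114598557-114598769, plus strand): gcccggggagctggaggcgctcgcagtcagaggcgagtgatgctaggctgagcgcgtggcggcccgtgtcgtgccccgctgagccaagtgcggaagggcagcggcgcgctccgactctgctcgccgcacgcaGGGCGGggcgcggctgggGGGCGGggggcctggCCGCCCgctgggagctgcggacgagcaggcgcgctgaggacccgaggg
GLA (chrX:101408013-101408175, minus strand): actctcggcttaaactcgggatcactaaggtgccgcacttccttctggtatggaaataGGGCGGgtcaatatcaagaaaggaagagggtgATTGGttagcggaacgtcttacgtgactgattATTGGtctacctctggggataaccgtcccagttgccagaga
CERS5 (chr12:50167534-50167619, minus strand): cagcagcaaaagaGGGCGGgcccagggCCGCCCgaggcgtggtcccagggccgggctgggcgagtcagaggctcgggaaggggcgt
These stretches are 213, 163 and 86 bases long. UGT8 has 3 GC boxes in its stretch and GLA 1 with 2 CCAAT boxes, while CERS5 has 2 GC boxes. Over the whole 250 bases, UGT8 and CERS5 were rich in G and C (73.2% and 76.8%, beside a median of 58.0% over all RefSeq upstream stretches of this length), and GLA had 46.8%. The table held such stretches for 32 of the 41 members, of which 31 had a GC box and 12 a CCAAT box at 1 start or more. Of all 35116 stretches, each counted alone, 42.6% and 32.0% held these motifs, so the counts over members, which can have several starts, are not on the same footing. The E-box CACGTG was found for NEU1 and UGT8 (6.34% of all stretches), at another start of UGT8 than the one used here. A match is a description of letters and shows no binding.

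Serine palmitoyltransferase makes the first committed step, the joining of serine with palmitoyl-CoA. It needs SPTLC1 with either SPTLC2 or SPTLC3 as the catalytic partner, and a small subunit, SPTSSA or SPTSSB. SPTLC2 (chromosome 14, 77505997 to 77616637 in GRCh38, minus strand) stood at 37.0, 37.7 and 40.9 CPM in WT, 51.4, 51.7 and 57.1 CPM in KO, and 36.5, 33.5 and 35.7 CPM in the OE-labelled libraries. Every KO library was above every other library. SPTLC2 was 1.39-fold higher in KO than in WT, a log2 fold change of 0.47 ± 0.13 (SE, edgeR adjusted p = 0.0186), and lower in the OE-labelled libraries than in KO (-0.60 ± 0.13, adjusted p = 0.00197).

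SPTLC3 (chromosome 20, 13008972 to 13169103, plus strand), whose subunit widens the range of acyl chains that the enzyme accepts, went the other way. It had 20.01, 19.9 and 24.0 CPM in WT, 12.3, 14.6 and 14.4 CPM in KO, and 14.8, 16.9 and 11.9 CPM in the OE-labelled libraries. Both engineered lines lay below all WT libraries and overlapped each other. The log2 fold change was -0.63 ± 0.18 for KO against WT (adjusted p = 0.0208) and -0.56 ± 0.18 for the OE-labelled libraries against WT (adjusted p = 0.0373). The ratio of SPTLC2 to SPTLC3 in CPM was thus 1.85, 1.89 and 1.7 in WT, against 4.19, 3.54 and 3.96 in KO, and stood at 2.46, 1.98 and 2.99 in the OE-labelled libraries, with no overlap among the 3 groups. Per kilobase, SPTLC2 was 57.8 ± 1.3% of the pair in WT, 74.6 ± 1.6% in KO and 64.8 ± 4.7% in the OE-labelled libraries (SD, n = 3). The summed level of the pair was 7.77 to 8.91 CPM per kb in WT and 8.28 to 9.33 in KO, ranges that overlap, and 6.31 to 6.87 in the OE-labelled libraries, below both.

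The common subunit SPTLC1 had 416, 471 and 405 CPM in WT, 424, 407 and 426 CPM in KO, and 398, 379 and 424 CPM in the OE-labelled libraries. All 3 groups overlapped, and its 95% interval for KO against WT, -0.26 to 0.18 on the log2 scale, leaves room for only small changes. SPTSSA, the small subunit that activates the enzyme (chromosome 14, 34432788 to 34462240, minus strand), had 279, 347 and 317 CPM in WT, 246, 254 and 270 CPM in KO, and 325, 327 and 353 CPM in the OE-labelled libraries. It was higher in the OE-labelled libraries than in KO (0.39 ± 0.11, edgeR adjusted p = 0.00988), while its value for KO against WT was -0.29 ± 0.11 (adjusted p = 0.0726). Its relative SPTSSB was close to silent, with 8 counts over the WT libraries, 2 over KO and 0 over the OE-labelled libraries, where 0 allows up to 0.111 CPM.

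For KO against WT, the adjusted p of SPTLC2 was 0.0797 without WT replicate 1, 0.053 without KO replicate 2, 0.0722 without KO replicate 3 and 0.0666 after correction for transcript length, and that of SPTLC3 was 0.0811 without WT replicate 3, 0.0786 without KO replicate 1 and 0.0541 without KO replicate 2. With the OE-labelled libraries against WT, SPTLC3 lost its call without WT replicate 1 (0.0754), WT replicate 3 (0.165), KO replicate 2 (0.0566), OE replicate 1 (0.0661) or OE replicate 3 (0.16), and after correction for transcript length (-0.27, adjusted p = 0.303). After that correction SPTLC2 was at -0.08 in the OE-labelled libraries against KO (adjusted p = 0.653), and with the exon length of the files SPTSSA was at 0.14 (adjusted p = 0.328).

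The 3 ORMDL proteins bind serine palmitoyltransferase and hold it back when ceramide is plentiful. ORMDL3 led the family, with 107, 95.4 and 92.1 CPM in WT, 70.7, 74.0 and 72.1 CPM in KO, and 99.4, 113 and 82.3 CPM in the OE-labelled libraries. KO lay below both other groups without overlap. ORMDL3 (chromosome 17, 39921041 to 39927601, minus strand) was lower in KO than in WT with a difference of -0.44 ± 0.13 on the log2 scale (edgeR adjusted p = 0.028) and higher in the OE-labelled libraries than in KO (0.44 ± 0.13, adjusted p = 0.0147). Against WT its value in the OE-labelled libraries was 0.00, with an interval of -0.28 to 0.28.

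ORMDL1 (chromosome 2, 189770267 to 189784364, minus strand) had 22.8, 24.1 and 22.1 CPM in WT, 28.4, 20.6 and 27.9 CPM in KO, and 29.8, 40.9 and 34.9 CPM in the OE-labelled libraries. The latter were above all others. ORMDL1 was 1.53-fold higher there than in WT (0.61 ± 0.17, adjusted p = 0.0182) and also higher than in KO (0.46 ± 0.17, adjusted p = 0.0403). ORMDL2 (chromosome 12, 55818041 to 55821879, plus strand) had 23.7, 31.2 and 19.9 CPM in WT, 29.2, 26.4 and 32.9 CPM in KO, and 33.2, 48.1 and 32.6 CPM in the OE-labelled libraries. The OE-labelled libraries lay above WT and met the KO range, and ORMDL2 was higher than in WT (0.60 ± 0.19, adjusted p = 0.0362). As shares of the family per kilobase, ORMDL3 made up 68.6 ± 3.5% in WT, 58.3 ± 3.6% in KO and 58.9 ± 3.3% in the OE-labelled libraries. The KO and OE shares were both below every WT library. Of the ORMDL2 exons, 44.0% of the bases overlap other genes, mainly DNAJC14 on the opposite strand, where reads could not be assigned.

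No ORMDL call held in all fits. The call of ORMDL3 in KO against WT was lost without WT replicate 1 (adjusted p = 0.13), KO replicate 1 (0.0797), KO replicate 2 (0.0829) or KO replicate 3 (0.0762), and that against the OE-labelled libraries without OE replicate 2 (0.0534) or after correction for transcript length (0.0605). For ORMDL1 against WT it was lost without WT replicate 1 (0.067), WT replicate 3 (0.0736) or OE replicate 2 (0.0616). Against KO it was lost under 11 of 21 alternatives, among them those with library totals alone (0.0731), without the filter (0.0573), with exon length (0.0789) or transcript length (0.0521) corrected, and without KO replicate 2 (0.206), OE replicate 2 (0.127), OE replicate 3 (0.082), WT replicate 1 (0.0544) or KO replicate 3 (0.0504). For ORMDL2 against WT the adjusted p was 0.121 without WT replicate 1, 0.17 without WT replicate 3, 0.0516 without KO replicate 2 and 0.146 without OE replicate 2.

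KDSR, which reduces 3-ketodihydrosphingosine to dihydrosphingosine, passed no test. It had 71.8, 67.9 and 76.5 CPM in WT, 78.0, 76.5 and 86.5 CPM in KO, and 77.2, 75.4 and 76.8 CPM in the OE-labelled libraries, with log2 fold changes of 0.16 (interval -0.10 to 0.41) and 0.09 (-0.17 to 0.34) against WT. The KO libraries lay at or above the top of WT.

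Ceramide synthases then attach a fatty acid to the sphingoid base, and each has its own preferred chain. CERS2, which makes very-long-chain ceramides, led this step. It had 157, 138 and 146 CPM in WT, 194, 199 and 190 CPM in KO, and 184, 121 and 165 CPM in the OE-labelled libraries. KO was above WT without overlap, and the OE-labelled libraries spanned the WT range. CERS2 (chromosome 1, 150960583 to 150975003, minus strand) was 1.32-fold higher in KO than in WT (0.40 ± 0.14, edgeR adjusted p = 0.0491). This was the call closest to the threshold, and it was lost under 10 of 21 alternatives, among them upper-quartile scaling (0.0907) and 7 of the 9 fits that left out 1 library, with p from 0.0631 without OE replicate 3 to 0.146 without KO replicate 2. Of its exon bases, 37.2% overlap other genes, mainly SETDB1 on the opposite strand.

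CERS6, which makes C16 ceramide, was lower in level and changed more. It had 22.8, 19.1 and 33.8 CPM in WT, 37.1, 39.8 and 51.1 CPM in KO, and 30.8, 20.5 and 21.2 CPM in the OE-labelled libraries. Every KO library was above all others. CERS6 (chromosome 2, 168456249 to 168775134, plus strand) was 1.69-fold higher in KO than in WT (0.76 ± 0.21, adjusted p = 0.0198) and lower in the OE-labelled libraries than in KO (-0.82 ± 0.21, adjusted p = 0.0061). The first call was lost without WT replicate 1 (0.0879), WT replicate 2 (0.0875) or KO replicate 3 (0.103), and the second after correction for transcript length (0.0805). Its antisense neighbour CERS6-AS1, which covers 43.8% of the exon bases with 1 count in all, left those reads unassigned.

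CERS5, the other synthase of C16 ceramide, moved in another group. It had 59.2, 78.6 and 62.9 CPM in WT, 68.0, 58.2 and 61.5 CPM in KO, and 90.3, 107 and 92.3 CPM in the OE-labelled libraries. WT and KO overlapped, and the OE-labelled libraries were above both. CERS5 (chromosome 12, 50129289 to 50167533, minus strand) was 1.44-fold higher in the OE-labelled libraries than in WT (0.53 ± 0.14, adjusted p = 0.0145), a call lost without WT replicate 1 (0.0846) or WT replicate 3 (0.0671). Against KO the difference was 0.62 ± 0.14 (adjusted p = 0.0021), and it was called under all 21 alternatives, with an adjusted p from 0.000102 to 0.0179.

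CERS4, which uses chains of intermediate length (chromosome 19, 8206736 to 8262421, plus strand), had 2.4, 7.6 and 4.0 CPM in WT, 2.6, 2.3 and 2.6 CPM in KO, and 6.5, 7.7 and 4.5 CPM in the OE-labelled libraries. WT spanned nearly the whole range of both other groups. CERS4 was higher in the OE-labelled libraries than in KO by 1.32 ± 0.38 (adjusted p = 0.0111), under all 21 alternatives as well, and passed no test against WT (KO -0.91, adjusted p = 0.12, and the OE-labelled libraries 0.42, adjusted p = 0.443). CERS1 was scarce, with 62, 45 and 34 counts over WT, KO and the OE-labelled libraries, and 68.3% of its exon bases are shared with GDF1, so its level is uncertain. Per kilobase, CERS2 made up 59.3 ± 5.1% of the ceramide synthase transcripts in WT, 66.5 ± 1.6% in KO and 52.8 ± 7.6% in the OE-labelled libraries. CERS5 made up 33.4 ± 4.3%, 26.6 ± 1.8% and 40.9 ± 6.8% in the same order, and CERS6 3.61 ± 1.2%, 5.16 ± 0.96% and 2.87 ± 0.49%. With exon length in place of transcript length, CERS6 made up 7.83%, 10.7% and 6.55%, and CERS5 21.1%, 15.8% and 27.1%. The summed level had a median of 96.1 CPM per kb in WT, 114 in KO and 116 in the OE-labelled libraries, and all 6 libraries of the engineered lines, at 107 or more, were above all of WT.

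**Figure D2:**
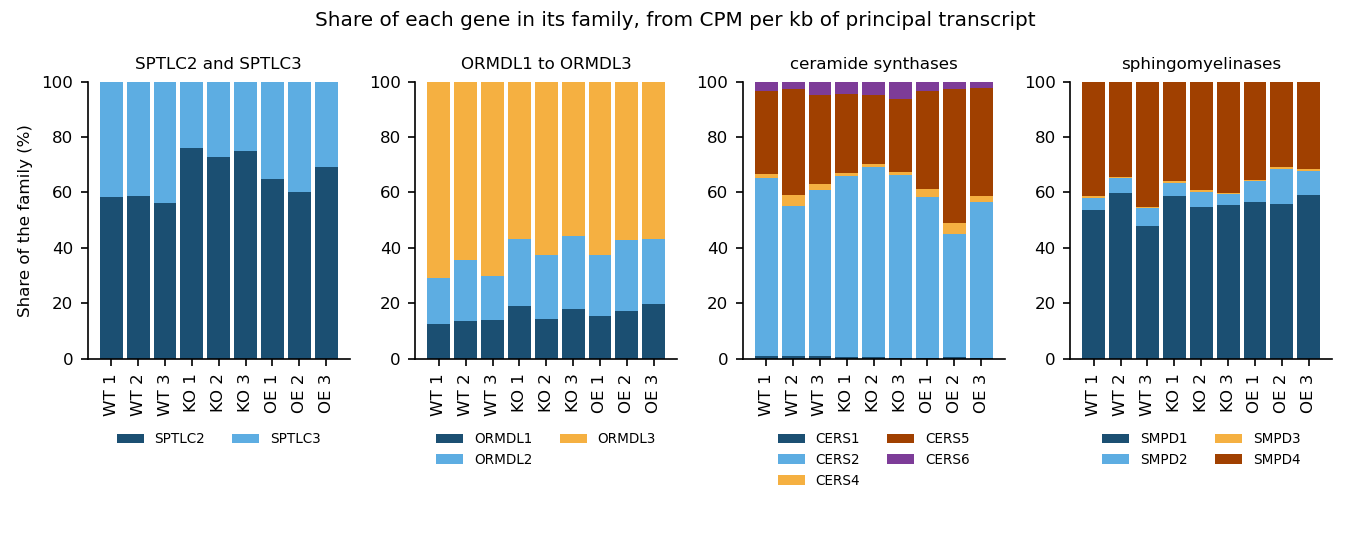
Share of each gene in the summed CPM per kb of its family, in percent, for each of the 9 libraries and 4 families. SPTLC2 takes 56.3% to 58.8% of its pair in WT and 72.8% to 76.0% in KO, and CERS5 takes its largest share (48.4%) in OE replicate 2.

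The desaturase DEGS1, which turns dihydroceramide into ceramide, had 109, 110 and 109 CPM in WT, 110, 117 and 118 CPM in KO, and 135, 113 and 141 CPM in the OE-labelled libraries. The last group lay above WT but the difference was 0.24 ± 0.12 with an adjusted p of 0.153. DEGS2, which also hydroxylates the base, was scarce, with 50 counts over WT, 15 over KO and 33 over the OE-labelled libraries. Its KO to WT ratio was 0.284 (95% counting interval 0.148 to 0.514), with KO below WT in every library, and its adjusted p was 0.07. DESeq2 (0.0415) and limma-voom (0.0347) put it past the threshold. It was not called under 17 of 21 alternatives, among them all 9 fits that left out 1 library. The WT counts were 17, 17 and 16 and the KO counts 6, 9 and 0. As KO did not carry DEGS2 past the filter on low counts, its selection may have favoured a difference. These DEGS2 values are therefore a description.

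CERT1 carries ceramide from the endoplasmic reticulum to the Golgi for sphingomyelin synthesis. It had 71.8, 66.8 and 79.7 CPM in WT, 98.2, 101 and 106 CPM in KO, and 70.4, 61.7 and 80.7 CPM in the OE-labelled libraries. KO was above every other library, while WT and the OE-labelled libraries overlapped. CERT1 (chromosome 5, 75356345 to 75512138, minus strand) was 1.4-fold higher in KO than in WT (0.48 ± 0.13, edgeR adjusted p = 0.0163) and lower in the OE-labelled libraries than in KO (-0.52 ± 0.13, adjusted p = 0.00508). The first call was lost without WT replicate 1 (0.0627), WT replicate 2 (0.056), KO replicate 2 (0.0554) or KO replicate 3 (0.0551). Its transcript is among the longest of the list, at 7532 nt, and after correction for transcript length it was at 0.31 in the OE-labelled libraries against WT (adjusted p = 0.0474) and no longer differed from KO at the threshold (adjusted p = 0.8). CERK, which phosphorylates ceramide, had 29.4 to 35.7 CPM in WT and KO and 27.4 to 33.0 CPM in the OE-labelled libraries, and passed no test.

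Sphingomyelin is made by SGMS1 in the Golgi and by SGMS2, mostly at the plasma membrane, and SAMD8 makes the related ceramide phosphoethanolamine. SGMS1 had 24.8, 30.4 and 31.1 CPM in WT, 36.2, 41.1 and 45.1 CPM in KO, and 33.5, 17.7 and 27.9 CPM in the OE-labelled libraries. KO was above both other groups. The difference between KO and WT was 0.51 ± 0.20 (edgeR adjusted p = 0.0834), and that between the OE-labelled libraries and KO was -0.62 ± 0.20 (adjusted p = 0.0182). SGMS2 had 8.1, 4.0 and 12.7 CPM in WT, 12.5, 12.6 and 18.4 CPM in KO, and 7.1, 7.5 and 7.0 CPM in the OE-labelled libraries. WT overlapped both other groups, which did not overlap each other. It was lower in the OE-labelled libraries than in KO with a difference of -1.01 ± 0.30 on the log2 scale (adjusted p = 0.0128), and its KO against WT value was 0.81 ± 0.30 (adjusted p = 0.0685). For SGMS1 (chromosome 10, 50305586 to 50625163, minus strand) the call was lost without KO replicate 2 (0.0526), KO replicate 3 (0.0716) or OE replicate 2 (0.0881), and for SGMS2 (chromosome 4, 107824563 to 107915047, plus strand) without KO replicate 3 (0.0754) or after correction for transcript length (0.0556). SAMD8 lay between 21.2 and 35.5 CPM in all libraries, with overlap of all groups. The summed level of the family had a median of 13.0 CPM per kb in WT, 17.1 in KO and 12.4 in the OE-labelled libraries.

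UGT8 adds galactose to ceramide and is known as the galactosylceramide synthase of myelin-forming cells. It was the member with the largest change. The WT libraries had 0, 2 and 2 counts of it, the KO libraries 15, 30 and 33, with 0, 0 and 10 in the OE-labelled libraries, which is 0.00, 0.24 and 0.23 CPM, 1.8, 3.2 and 3.5 CPM, and 0.00, 0.00 and 0.94 CPM. KO lay above all other libraries, and OE replicate 3 stood apart from the other 2 of its label. UGT8 (chromosome 4, 114598770 to 114678225, plus strand) was higher in KO than in WT with a difference of 4.07 ± 0.92 on the log2 scale (edgeR adjusted p = 0.0048) and lower in the OE-labelled libraries than in KO (-2.95 ± 0.79, adjusted p = 0.00727). From the summed counts of 4 in WT, 78 in KO and 10 in the OE-labelled libraries, the KO to WT ratio was 18.5 (95% counting interval 6.93 to 69.4). UGT8 passed the filter on low counts through the KO libraries alone, so a call was favoured by its selection and these values are a description. Even in KO it was at 0.696 ± 0.234 CPM per kb, beside 52.9 ± 4.41 CPM per kb for the glucosylceramide synthase UGCG.

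UGCG, which opens the main glycosphingolipid route, overlapped among all 3 groups. It had 191, 206 and 206 CPM in WT, 200, 204 and 232 CPM in KO, and 203, 186 and 207 CPM in the OE-labelled libraries. Its log2 fold changes against WT were 0.08 (95% interval -0.15 to 0.31) and -0.02 (-0.25 to 0.21). The lactosylceramide synthases B4GALT5 and B4GALT6 and the GM3 synthase ST3GAL5, the next enzymes on the route, passed no test in any comparison. B4GALT5 had 160, 146 and 160 CPM in WT, 163, 169 and 188 CPM in KO, and 159, 138 and 183 CPM in the OE-labelled libraries. KO was above WT in every library, by 0.16 on the log2 scale (interval -0.10 to 0.42). Per kilobase it made up 80.8 ± 1.7% of its pair in WT, 81.0 ± 1.3% in KO and 83.8 ± 1.6% in the OE-labelled libraries. ST3GAL5 had 59.3 to 71.5 CPM in WT, 49.3 to 60.1 CPM in KO and 64.7 to 69.8 CPM in the OE-labelled libraries. KO met the lower edge of WT and lay below the OE-labelled libraries.

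Sphingomyelinases return sphingomyelin to ceramide. The acid enzyme SMPD1 had 56.2, 53.8 and 42.4 CPM in WT, 61.0, 53.9 and 53.5 CPM in KO, and 56.0, 57.8 and 53.7 CPM in the OE-labelled libraries. SMPD4, a neutral sphingomyelinase, had 69.1 to 97.1, 83.5 to 87.0 and 64.1 to 78.4 CPM. Neither passed a test. SMPD2, another neutral sphingomyelinase (chromosome 6, 109440724 to 109443919, plus strand), was scarcer, with 3.6, 3.5 and 4.4 CPM in WT, 3.9, 4.0 and 3.0 CPM in KO, and 5.7, 9.96 and 5.8 CPM in the OE-labelled libraries. The OE-labelled libraries were above all others, with OE replicate 2 far above its fellows. SMPD2 was 1.84-fold higher there than in WT (0.88 ± 0.29, edgeR adjusted p = 0.0432) and also higher than in KO (0.97 ± 0.29, adjusted p = 0.0149). The first call was lost under 12 of 21 alternatives, among them the fits without OE replicate 2 (0.211), WT replicate 1 (0.126), WT replicate 2 (0.0767), WT replicate 3 (0.0834) or KO replicate 2 (0.0576), and the second without OE replicate 2 (0.0956) or KO replicate 3 (0.064). Length correction ended both calls, at 0.64 (exon length, 0.121) and 0.65 (transcript length, 0.108) against WT and at 0.65 (0.079) and 0.67 (0.0681) against KO. With transcript length corrected and WT replicate 2 and OE replicate 2 left out, the values were 0.34 (0.542) and 0.47 (0.272). Of the exon bases of SMPD2, 21.8% overlap PPIL6 on the opposite strand. SMPD3 had 31, 33 and 36 counts over the 3 groups.

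Ceramidases release sphingosine, the substrate of the kinases that feed the lyase. ASAH1, the lysosomal acid ceramidase, had 37.1, 45.4 and 36.1 CPM in WT, 37.1, 46.8 and 45.5 CPM in KO, and 50.7, 35.5 and 48.1 CPM in the OE-labelled libraries, so all groups overlapped. ACER3, the alkaline enzyme of the Golgi and endoplasmic reticulum, had 23.6 to 26.1, 24.96 to 29.5 and 26.9 to 27.8 CPM. ASAH2, the neutral enzyme, had 1.9 to 4.7 CPM over all libraries and has a near copy, ASAH2B, so its counts are uncertain. ACER2 had 16, 17 and 18 counts over the 3 groups and was not tested. No ceramidase passed a test in any comparison. ASAH1 took 79.4 ± 2.2% of the step per kilobase in WT, 79.6 ± 2.9% in KO and 79.6 ± 2.2% in the OE-labelled libraries, and 41.9% in WT when the exon length of the files was used instead.

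The last step takes glycosphingolipids apart, mostly in the lysosome, and held both directions. GLA, alpha-galactosidase A, which removes the terminal galactose of globosides and is deficient in Fabry disease, had 67.5, 75.9 and 64.0 CPM in WT, 68.9, 62.9 and 65.0 CPM in KO, and 98.5, 115 and 106 CPM in the OE-labelled libraries. The last group was above all others, and WT and KO overlapped. GLA (chromosome X, 101393273 to 101408012, minus strand) was 1.54-fold higher in the OE-labelled libraries than in WT (0.62 ± 0.12, edgeR adjusted p = 0.00301) and 1.62-fold higher than in KO (0.70 ± 0.12, adjusted p = 0.000373). In the comparison of the OE-labelled libraries with WT it was the only member called under all 21 alternatives, with an adjusted p of at most 0.0225 and a log2 fold change of 0.37 to 0.71. Its transcript, of 1318 nt, is the shortest of the list. The value was 0.37 after correction for transcript length and 0.70 after correction for exon length. The 500 genes closest in transcript length had a median of 0.27 in the same comparison. Of its exon bases, 9.0% overlap the ribosomal protein gene RPL36A on the opposite strand.

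GALC, the galactosylceramidase that removes the sugar UGT8 adds, went the other way from UGT8 in KO. It had 94.3, 87.2 and 94.5 CPM in WT, 58.2, 68.0 and 71.0 CPM in KO, and 93.3, 69.0 and 89.3 CPM in the OE-labelled libraries. KO lay below WT, and OE replicate 2 fell within the KO range. GALC (chromosome 14, 87837820 to 87993665, minus strand) was lower in KO than in WT with a difference of -0.49 ± 0.14 on the log2 scale (adjusted p = 0.0208), a call lost without WT replicate 1 (0.0757), WT replicate 3 (0.0535), KO replicate 1 (0.0937) or KO replicate 2 (0.0635). Its value in the OE-labelled libraries against KO was 0.35 (adjusted p = 0.052), called under 10 of 21 alternatives.

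GM2A, the activator that lifts ganglioside GM2 to beta-hexosaminidase, had 99.3, 87.5 and 100.4 CPM in WT, 69.9, 71.1 and 74.2 CPM in KO, and 84.9, 102 and 95.7 CPM in the OE-labelled libraries. KO was below every other library. GM2A (chromosome 5, 151212150 to 151270440, plus strand) was lower in KO than in WT (-0.42 ± 0.12, edgeR adjusted p = 0.0246) and higher in the OE-labelled libraries than in KO (0.39 ± 0.12, adjusted p = 0.0175). The first call was lost without WT replicate 1 (0.0939), WT replicate 3 (0.075), KO replicate 1 (0.0769), KO replicate 2 (0.0961) or KO replicate 3 (0.0504), and the second without KO replicate 1 (0.0545), KO replicate 2 (0.0644) or OE replicate 3 (0.0552). HEXA, the alpha subunit of that hexosaminidase, lay between 39.1 and 52.8 CPM in all groups with overlap throughout.

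PSAP (chromosome 10, 71816298 to 71851325, minus strand) had 2438, 2873 and 2302 CPM in WT, 2175, 2048 and 1940 CPM in KO, and 1988, 2152 and 1844 CPM in the OE-labelled libraries. All 6 libraries of the engineered lines were below all 3 of WT. PSAP was lower in the OE-labelled libraries than in WT with a difference of -0.35 ± 0.11 on the log2 scale (edgeR adjusted p = 0.0291), and its KO against WT value was -0.30 ± 0.11 (adjusted p = 0.0555). The latter was called under 11 of 21 alternatives, among them DESeq2 (0.0447), limma-voom (0.0456) and both length corrections (0.0407 and 0.0152). The call against WT in the OE-labelled libraries was lost without WT replicate 1 (0.0688), WT replicate 2 (0.0898), KO replicate 2 (0.0532), OE replicate 1 (0.0582) or OE replicate 3 (0.122). NEU1, the lysosomal sialidase, had 97.9, 118 and 77.6 CPM in WT, 126, 122 and 91.8 CPM in KO, and 129, 145 and 122 CPM in the OE-labelled libraries, with a value of 0.43 ± 0.16 for the OE-labelled libraries against WT (adjusted p = 0.0594), which was called under 8 of 21 alternatives. GBA2, the glucosylceramidase outside the lysosome, had 98.9 to 103 CPM in WT, 106 to 119 CPM in KO and 104 to 113 CPM in the OE-labelled libraries, and both engineered lines lay above WT in every library. It passed no test, and its intervals against WT stayed within -0.11 and 0.37.

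**Figure D3:**
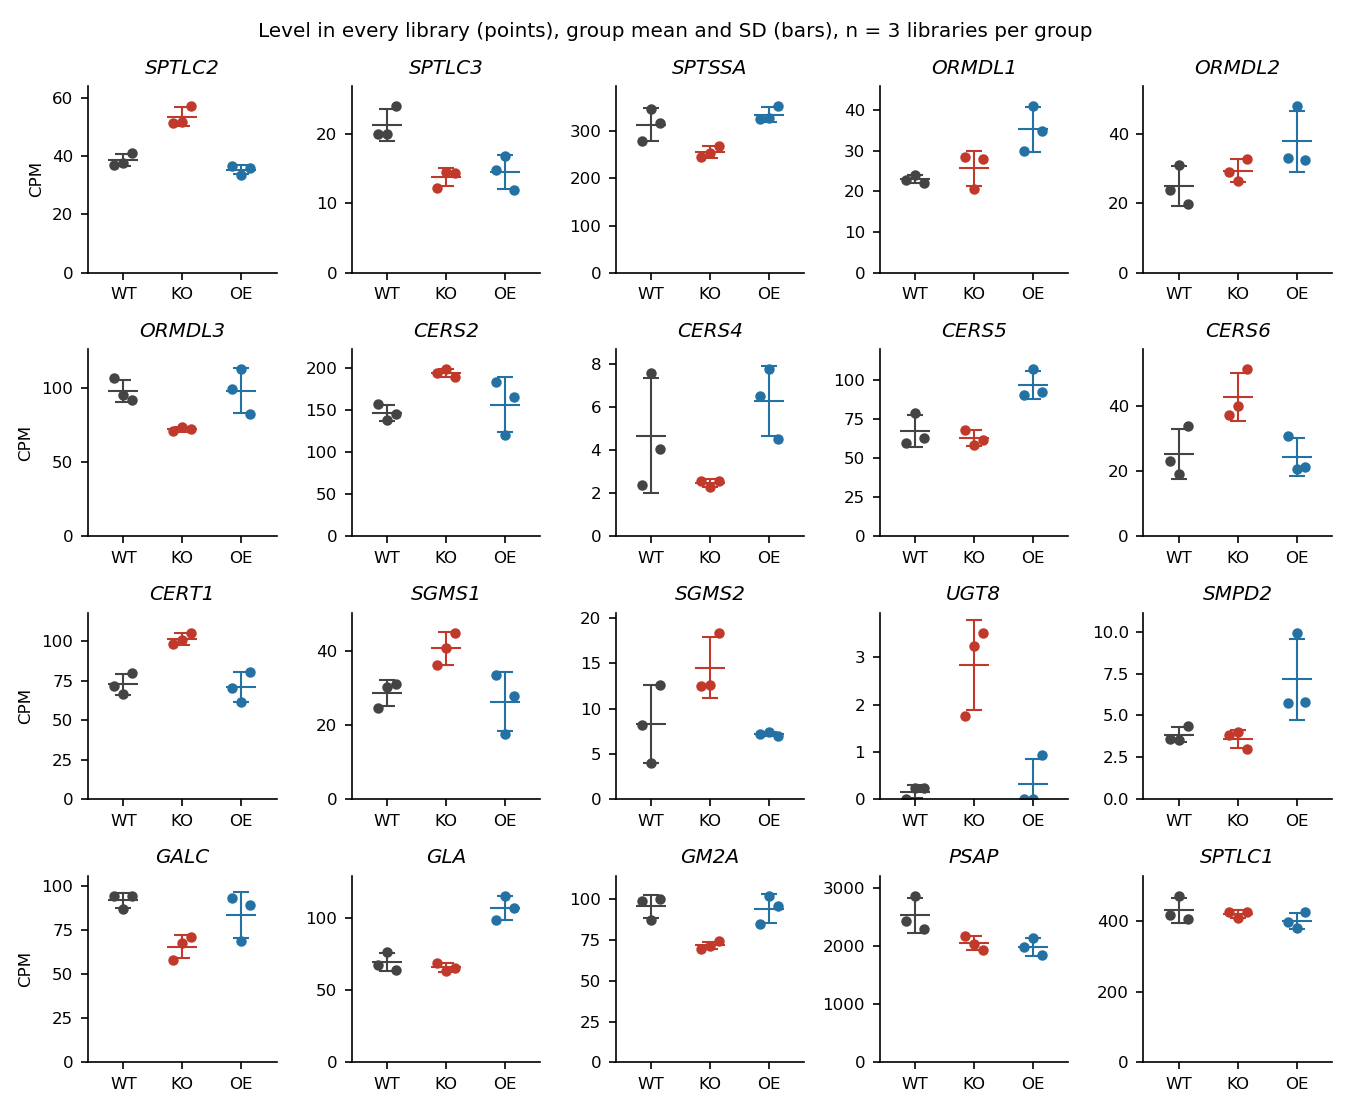
CPM of 20 members in every library (points), with the group mean and SD over 3 libraries (bars); each vertical axis starts at 0 and OE stands for the OE-labelled libraries. KO stands apart from both other groups for SPTLC2, SPTSSA, ORMDL3, CERS2, CERS6, CERT1, SGMS1, UGT8 and GM2A. The OE-labelled libraries stand apart for ORMDL1, CERS5, SMPD2 and GLA, and narrowly, below both other groups, for SPTLC2.

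Length divided the members that changed in the OE-labelled libraries. The 5 members called higher against WT had principal transcripts of 1318 to 2692 nt, with a median of 2051 nt, while the 32 that were not called had a median of 4046 nt. Across the 39 members the log2 fold change for the OE-labelled libraries against WT went with log2 transcript length at Pearson's r = -0.38 and Spearman's rho = -0.44, and across all 14077 genes tested with a length at -0.36 and -0.42. These are correlations across genes that share the same libraries, not across replicates. Against KO, the 8 members called higher had a median of 2140 nt and the 6 called lower a median of 6683 nt. For KO against WT the relation across the members was weaker (r = 0.17, rho = 0.27), and across all genes it was 0.07 and 0.17. The calls still differed in length. The 5 members called higher in KO had a median of 7217 nt, the 4 called lower 3890 nt and the 30 not called 3678 nt. The part of length in the KO calls was not tested. Beside genes of their own length, SPTLC2 (-0.13, where 500 genes of like length had a median of -0.40), CERT1 (-0.04 beside -0.40) and CERS6 (-0.06 beside -0.39) were higher than those genes in the OE-labelled libraries against WT. ORMDL1 (0.61 beside 0.05), ORMDL2 (0.60 beside 0.10) and CERS5 (0.53 beside 0.10) also exceeded theirs, while PSAP (-0.35 beside 0.02) and SPTLC3 (-0.56 beside -0.25) were lower. After correction for transcript length, CERS5 was at 0.40 against WT (edgeR adjusted p = 0.0156), ORMDL1 at 0.57 (0.0129), ORMDL2 at 0.49 (0.039) and PSAP at -0.36 (0.00473), all still called. SMPD2 was at 0.65 (0.108) and lost its call. With exon length in its place, ORMDL2 was at 0.43 and lost its call as well (0.0735).

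**Figure D4:**
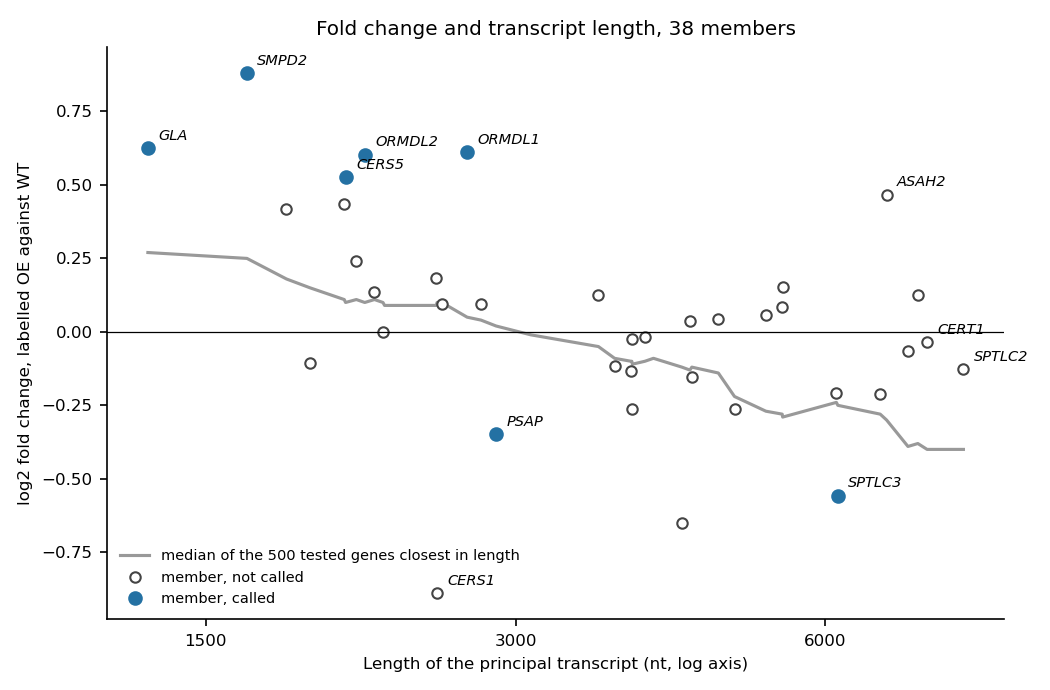
Log2 fold change of the OE-labelled libraries against WT (vertical) against the length of the principal transcript (log axis) for 38 members, leaving out UGT8; filled points were called, and the grey line is the median of the 500 tested genes closest in length. The line runs from 0.27 at the shortest to -0.40 at the longest members, and GLA, SMPD2, ORMDL1, ORMDL2 and CERS5 lie above it.

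Position on the chromosome went with some changes in KO. SPTLC3 lies on chromosome 20, where 47 of the 50 nearest tested genes were lower in KO than in WT, with a median of -0.84 beside -0.63 for SPTLC3 itself. The 25 genes before it had a median of -0.72 and the 25 after it -0.94. In the OE-labelled libraries against WT these neighbours had a median of -0.05, while SPTLC3 was at -0.56. Around GM2A on chromosome 5 the 25 genes before had a median of 0.18 and the 25 after -0.74 in KO against WT, and GM2A itself was at -0.42. CERT1, on the same chromosome, was higher in KO (0.48) among neighbours with a median of -0.30. SPTLC1 (-0.04) and UGCG (0.08), both on chromosome 9, passed no test among neighbours with medians of -0.39 and -0.31. The neighbours of the other called members, CERS2, SPTLC2, CERS6, UGT8, GALC and ORMDL3, had medians between -0.13 and 0.10.

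**Figure D5:**
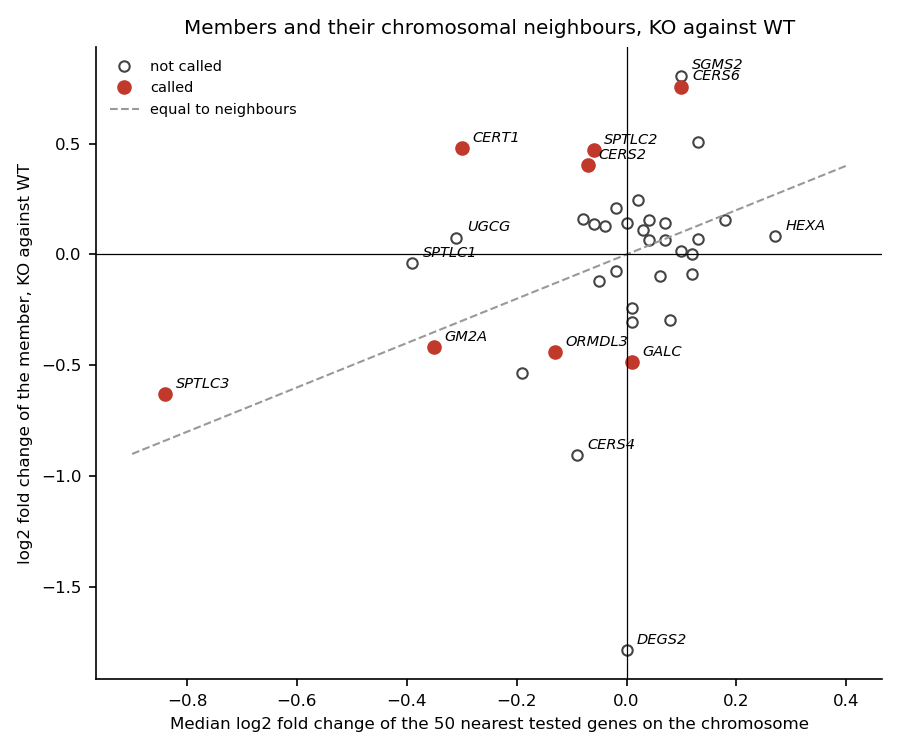
Log2 fold change of 38 members in KO against WT (vertical), leaving out UGT8, against the median of the 50 nearest tested genes on the same chromosome (horizontal); filled points were called and the dashed line marks equality. SPTLC3 lies at the far left with its neighbours (-0.84), GM2A lies close to the line, and CERT1 lies far above it.

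Other genes that supply or use the same lipids were counted from lists, all shares being of the genes tested. Of 10 genes of the sphingosine-1-phosphate branch, SGPL1 was lower in KO than in WT and 9 passed no test there. SPHK1, a sphingosine kinase, was higher in the OE-labelled libraries than in WT (1.69 ± 0.51, adjusted p = 0.0266). It had 0.49 to 1.6 CPM in WT and 1.8 to 4.6 CPM in the OE-labelled libraries. Its counts were low, with 14, 4 and 7 in WT and 16, 22 and 49 in the OE-labelled libraries. Elongation of fatty acyl-CoA supplies chains for the ceramide synthases, among other uses. Of 12 genes of this step, 3 were higher and 1 lower in KO than in WT, which is 33.3% beside 18.8% of all genes. ELOVL5 (0.38 ± 0.11, adjusted p = 0.0268), ELOVL6 (0.54 ± 0.15, 0.018) and ELOVL7 (0.51 ± 0.15, 0.0241) were the higher ones. ELOVL2, which elongates polyunsaturated chains, was lower (-5.13 ± 0.81, adjusted p = 0.000266), at 1.4 to 4.4 CPM in WT against 0.00 to 0.21 CPM in KO. Its WT libraries held 12, 28 and 38 counts, while KO had only 0, 0 and 2. The OE-labelled libraries held 15, 9 and 15. As KO did not carry ELOVL2 past the filter on low counts, its selection may have favoured this call. The ELOVL2 values are therefore a description, although the 33.3% counts its call. In the OE-labelled libraries against WT, ELOVL1 (0.45 ± 0.12, adjusted p = 0.0166) and ELOVL3 (0.87 ± 0.18, 0.0045) were higher and none was lower, which is 16.7% beside 20.7% of all genes. In the OE-labelled libraries against KO, 8 of the 12 were called, 4 in each direction, which is 66.7% beside 39.7% of all genes. ELOVL2 is counted among the higher ones there.

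Of 17 other tested sphingolipid enzymes and transfer proteins, the GD3 synthase ST8SIA1 was higher in KO than in WT (1.78 ± 0.48, edgeR adjusted p = 0.0158) and the GM2 and GD2 synthase B4GALNT1 lower (-0.54 ± 0.16, adjusted p = 0.0276). That is 11.8% called, beside 18.8% of all genes. In the OE-labelled libraries against WT, 2 were higher and 1 lower, which is 17.6% beside 20.7% of all genes. ASAH2B, the near copy of ASAH2, was higher in the OE-labelled libraries than in WT (0.74 ± 0.24, adjusted p = 0.0373), and ST8SIA5, a sialyltransferase of complex gangliosides, was lower (-0.52 ± 0.14, adjusted p = 0.0151). Of 23 other lysosomal genes, none was higher and 4 were lower in KO than in WT, with 1 higher and 3 lower in the OE-labelled libraries. That is 17.4% in both comparisons, beside 18.8% and 20.7% of all genes, so the list was near the background. The 4 lower in KO were CTSB (-1.36 ± 0.11, adjusted p = 4.41e-07), CTSL (-0.61 ± 0.12, 0.0017) and GUSB (-0.96 ± 0.15, 0.000194), which are lysosomal hydrolases, and the transcription factor gene MITF (-0.83 ± 0.17, 0.00195). Among the 8 lysosomal members, GALC and GM2A were lower and none was higher in KO. SMPD1, ASAH1, GLA, HEXA, NEU1 and PSAP passed no test there. That is 2 of 8 called, beside 18.8% of all genes. The median log2 fold change of the 8 was 0.0, beside -0.01 for all genes, so the list as a whole was not lower.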

How the data were processed

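RNA from 9 H295R libraries, 3 each of WT, KO and OE, was sequenced after poly-A purification, per the labels' protocols. The authors deposited unnormalized counts of reads for each gene, made with featureCounts 1.5.2 and Ensembl release 101 of GRCh38 per the file headers. The submitters' processing notes name HISAT2 1.03, featureCounts 0.1.0, FastQC, Subread and DESeq2. By the options in the headers, strand was not used, and reads with several alignments or on overlapping genes were not counted.

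Here, edgeR 4.0.16 (R 4.3.3) fitted all 9 libraries at once by quasi-likelihood, with TMM factors and filterByExpr (minimum count 10). It had 6 residual degrees of freedom and a common biological coefficient of variation of 0.15, and the median SE was 0.187 on the log2 scale. Benjamini-Hochberg adjustment ran over 14150 genes, with calls under 0.05, and every adjusted p is from this test unless another tool is named. Levels are CPM, or CPM per kb of the principal GENCODE 29 transcript. Floors are 3 counts over a group, and intervals and floors cover counting error only. No libraries of a group agreed within sampling noise. Alternatives were DESeq2 1.42.0, limma-voom (limma 3.58.1), other scalings, no filter, fits of 2 groups, a replicate block, correction on exon length, and each library left out. Correction on transcript length, and leaving out WT replicate 2 with OE replicate 2, were chosen after seeing the data. The fit was tested on simulated data for KO against WT. There 73.7% of genes changed by 1 on the log2 scale were called with the right sign, and 92.9% of those changed by 2. Of the calls, 6.8% were unchanged genes. Smaller changes in KO, the size of most member differences, were not simulated.

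Members and lists were chosen with earlier results of these data known. Values in every library are given for members called or leading their step, and other lists name at most 4 called genes per comparison by smallest adjusted p. Some genes of these lists are not reported here.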

Additional observations from a re-analysis of the deposited data

How the results depend on the processing

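Leaving aside UGT8, which passed the filter through KO alone, all 21 alternatives left GLA called in the OE-labelled libraries against WT, and GLA, CERS5 and CERS4 in the OE-labelled libraries against KO. Each other call failed under at least 1. CERT1 depended on the length correction. In the OE-labelled libraries against WT it was not called in the main fit (-0.04, edgeR adjusted p = 0.876). It was called higher at 0.38 with the correction on exon length, 0.31 on transcript length and 0.37 when WT replicate 2 and OE replicate 2 were also left out. Against KO the called difference of -0.52 was gone on exon length (0.012, edgeR adjusted p = 0.945). The causes were not tested.

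Leaving out 1 library moved the members called in KO against WT between 1 and 6 higher and between 0 and 6 lower, and in the OE-labelled libraries against WT between 1 and 6 higher and between 0 and 2 lower. All genes called ranged from 1764 to 3214 and from 1244 to 3673. The libraries whose loss moved the latter by over 1.5 times were WT replicates 1 (1381) and 3 (1244) and OE replicate 2 (1849), and for KO against WT KO replicate 2 (1764).

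In KO against WT, DESeq2 and the correction on transcript length each gave 7 members lower in place of 4, and leaving out both replicates 2 with that correction gave 8 higher in place of 5. Of all genes tested, 20.6%, 23.8% and 24.8% were called in these settings, in the same order, beside 18.8% in the main fit. With the OE-labelled libraries against WT, 3 members were higher in place of 5 with library totals alone, and 3 higher and 0 lower when only the 2 groups were in the fit. All genes called were 20.9% and 17.1% there, beside 20.7% in the main fit. In the same comparison 1 member was lower in place of 2 without the filter, with either length correction, and with the correction and both replicates 2 left out. All genes called were 11.4% without the filter, where more genes were tested. They were 19.8% on exon length, 20.5% on transcript length and 20.7% with both replicates 2 also left out. That last setting gave 2 lower in place of 6 against KO, with 33.5% of all genes called beside 39.7%.

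Scaling by library totals alone shifted the median of all genes to -0.129 in the OE-labelled libraries against WT, and the share of higher calls from 46.7% to 25.9%.

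Whether the replicate numbers pair the samples was not settled. Deviations of same-numbered libraries from their group means correlated from -0.138 to 0.246, and those of differently numbered ones from -0.281 to 0.224. With a replicate block, 6 members were higher and 6 lower in KO against WT (3235 genes called), 6 and 2 in the OE-labelled libraries against WT (3757), and 9 and 8 against KO (6135). Without the block, 2655, 2924 and 5612 genes were called in the same order, so each comparison gained calls with it.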
